A study of Mus musculus with 6 samples.

Results

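The genes described here encode the protein subunits of the mitochondrial ribosome, taken as every gene whose single annotated symbol starts with Mrpl or Mrps and a digit. There were 76 such genes among the 18194 genes measured, and each was represented by the probe set with the highest mean over the 6 arrays. The mitochondrial ribosome translates the few messenger RNAs of the mitochondrial genome, whose products are core subunits of the respiratory chain and the ATP synthase. Its proteins are themselves encoded in the nucleus, made in the cytosol and imported, and they assemble on mitochondrially encoded ribosomal RNA into a large subunit, which forms the peptide bond, and a small subunit, which reads the messenger. Some have a counterpart in the bacterial ribosome and others are specific to mitochondria. Blood stem cells are known for low mitochondrial activity and for a dependence on tightly controlled protein synthesis.

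The study asked how the loss of E2A, the transcription factor gene Tcf3, changes expression in an early blood progenitor. E2A-KO LMPP (2 arrays) and WT LMPP (2 arrays) were cells of adult mouse bone marrow without lineage markers, positive for SCA1 and KIT and high for FLT3, a gate for progenitors with lymphoid and myeloid potential. WT LSK FLT3- (2 arrays) had the same lineage, SCA1 and KIT gate but lacked FLT3, the gate that holds the blood stem cells. All samples were labelled as marrow of C57BL/6 mice, and the labels do not say which allele made the knockout or whether marrow of several mice was pooled. Whether the paired arrays within a group hold RNA of different mice is not labelled, so the p-values reflect array-to-array spread, possibly a technical one.

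Expression is given as log2 of the deposited intensity, and differences are log2 differences tested with limma, with Benjamini-Hochberg adjustment over all 18194 genes and a threshold of 0.05. Tcf3 was measured by 3 probe sets, whose position relative to the deleted part is not given, so they do not check the genotype. Its brightest probe set read 6.80 and 6.53 in E2A-KO LMPP, 6.93 and 6.86 in WT LMPP, and 7.27 and 7.41 in WT LSK FLT3-. Flt3 followed the labels: it read 10.71 and 10.76 in E2A-KO LMPP and 10.80 and 10.81 in WT LMPP, against 8.87 and 8.76 in WT LSK FLT3-. The leukocyte gene Ptprc lay at 11.20 or more on every array. Kit, part of the gate of all groups, read 8.85 and 8.47 in E2A-KO LMPP and 9.05 and 8.91 in WT LMPP, against 10.055 and 10.378 in WT LSK FLT3-. In WT LMPP against WT LSK FLT3- it differed by -1.24, and by -0.99 after the quantile normalization described below, and passed both times. Ly6a, which encodes SCA1, had no probe set of its own symbol here.

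The overall distribution of intensities differed between the fractions. The upper quartile over all probe sets was 5.78 and 5.79 in E2A-KO LMPP and 5.80 and 5.82 in WT LMPP, against 6.13 and 6.15 in WT LSK FLT3-, while the medians ran the other way, at 4.04 and 4.04, 4.01 and 4.01, and 3.91 and 3.90 in the same order of groups. All 76 mitoribosomal genes lay above the median of every array, and 68 to 70 of them above its upper quartile. Every comparison with WT LSK FLT3- is therefore given on both scales, as deposited and after quantile normalization, which gives the 6 arrays 1 common distribution.

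On the deposited values, 30 of the 76 mitoribosomal genes fell in WT LMPP relative to WT LSK FLT3-, 46 did not pass the test, and 0 rose in limma's test (0 at an unadjusted p under 0.05). The genes that fell make up 39.5% of the family, where 23.7% of all genes fell, 10.4% rose and 34.1% changed in either direction. Every gene of the family lay above the median over genes on every array. Among the brightest 60% of all genes, the range in which the family lies, 37.1% fell, which is close to the family's share. The median difference of the family was -0.31, with 67 genes below 0 and 9 above, against -0.01 for all genes and -0.29 for the brightest 60%. The number that fell rests on 2 arrays a group. Leaving out an E2A-KO LMPP array did not lower the calls over all genes in this comparison. Leaving out a WT LMPP or WT LSK FLT3- array left 1 array in a compared group and fewer residual degrees of freedom. Calls over all genes then became fewer too, most so without a WT LSK FLT3- array. A lower count in such a fit therefore does not show that the falls depend on a particular array.

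After quantile normalization the shift of the family as a whole was no longer seen. Its median difference was 0.02, equal to the 0.02 of all genes, with 7 genes lower and 5 higher in WT LMPP. These are 9.21% and 6.58% of the family, against 10.1% and 9.1% of all genes (19.2% in either direction). Of the brightest 60% of genes 14.1% were lower and 13.2% higher. The normalization moved the difference of each of the 76 genes upwards, by between 0.14 and 0.41 with a median of 0.35. In bulk samples of sorted cells, fewer cells of a type and less RNA per cell cannot be told apart, and neither scale measures the amount of RNA in a cell.

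**Figure D1:**
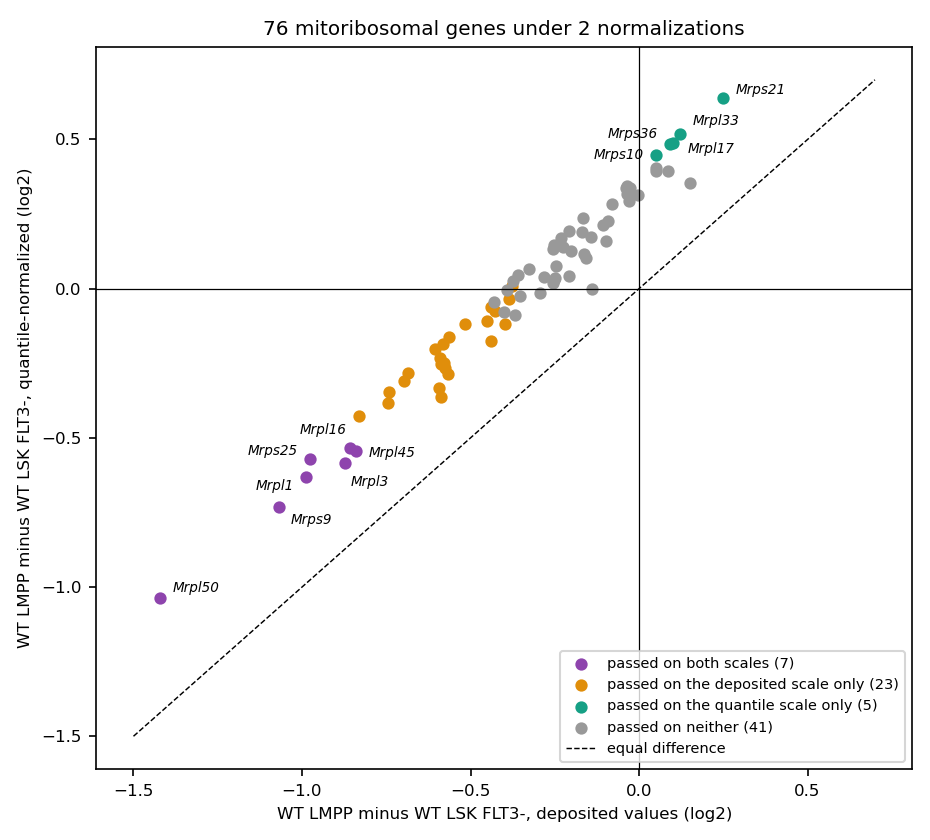
Log2 difference of WT LMPP minus WT LSK FLT3- for each of the 76 mitoribosomal genes (1 point a gene), on the deposited values on the horizontal axis and after quantile normalization on the vertical axis, with colours for the genes past an adjusted p of 0.05 on both scales, on 1 scale or on neither. The points lie above the diagonal by 0.14 to 0.41, and 7 genes were lower on both scales.

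**Figure D2:**
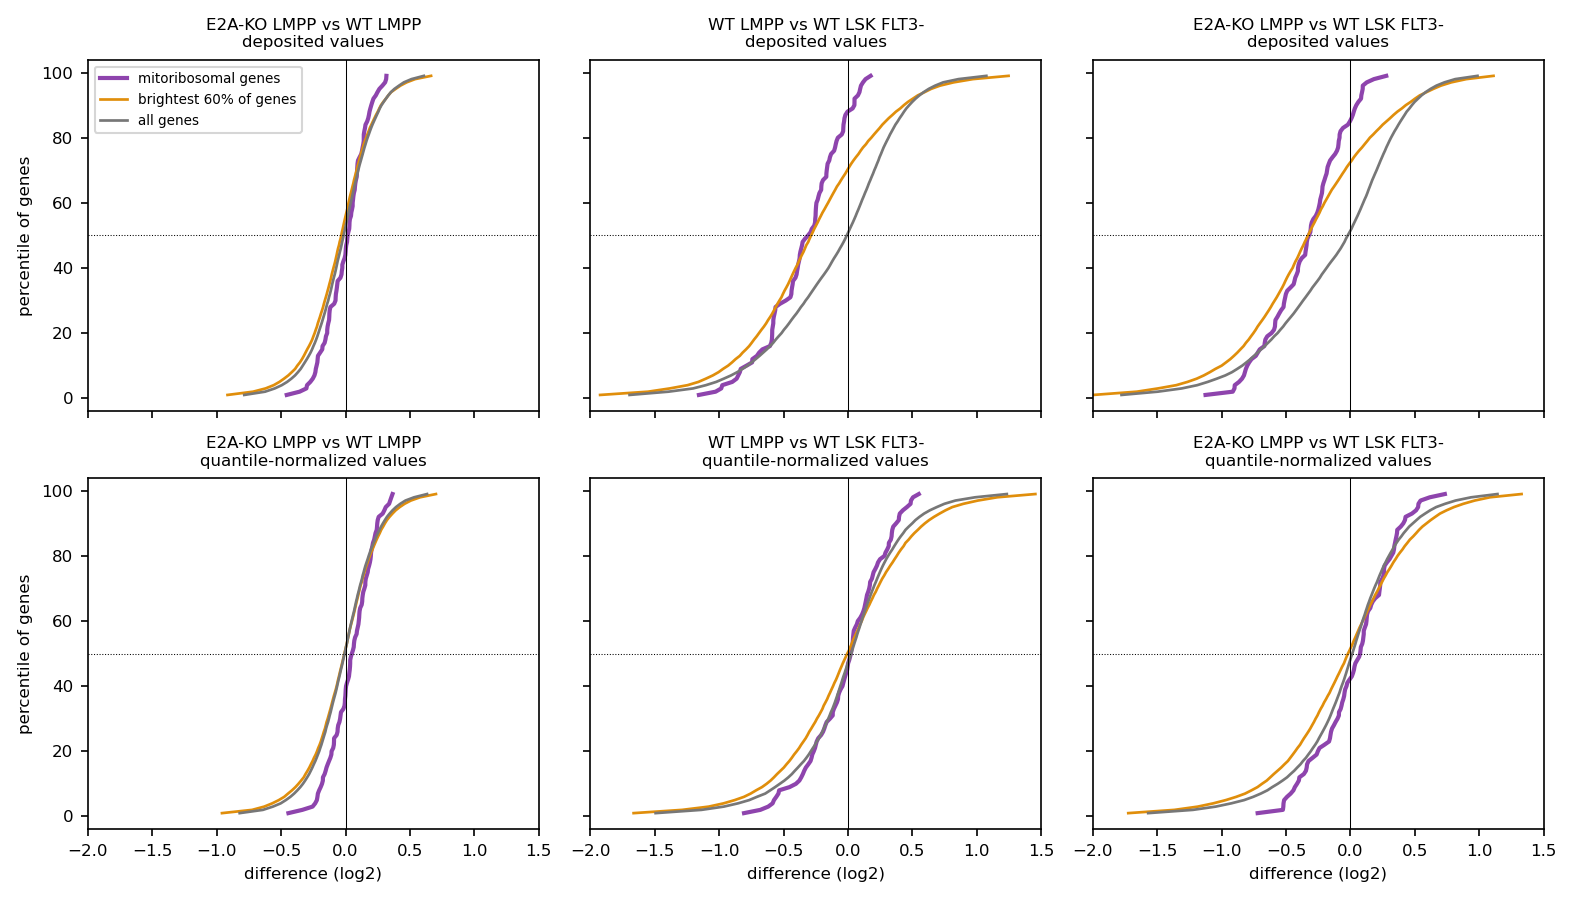
Percentiles of the log2 difference (vertical axis, percentile of genes) in the 3 comparisons, for the 76 mitoribosomal genes, the brightest 60% of genes and all 18194 genes, with deposited values above and quantile-normalized values below. In WT LMPP against WT LSK FLT3- the mitoribosomal median was -0.31 on the deposited values and 0.02 after quantile normalization.

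Across both scales, 7 genes were lower in WT LMPP than in WT LSK FLT3-, and the same genes also kept the call on the deposited values when each array was left out in turn. Mrpl50, a large-subunit protein specific to mitochondria, read 6.45 and 6.54 in WT LMPP, against 7.83 and 8.0 in WT LSK FLT3-. Its difference was -1.42 ± 0.13 (SE), a 2.68-fold lower intensity (adjusted p = 0.000198), and -1.04 after quantile normalization (adjusted p = 0.00155). It had the largest difference of the family on both scales, with a gap between the groups far wider than the spread within either. A second probe set for Mrpl50 showed a smaller difference of -0.31.

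Mrps9, a small-subunit protein with a bacterial counterpart, read 7.27 and 7.35 in WT LMPP, against 8.43 and 8.33 in WT LSK FLT3-. The difference was -1.07 ± 0.13 (adjusted p = 0.000688), and -0.73 after quantile normalization (adjusted p = 0.00654). Its other probe sets differed by -1.47, -0.36 and -0.06, the same sign in each. Mrpl1, the counterpart of the bacterial protein at the exit side for spent transfer RNA, read 5.49 and 5.55 in WT LMPP, against 6.58 and 6.42 in WT LSK FLT3-. It differed by -0.99 ± 0.13 (adjusted p = 0.000934), and by -0.63 after quantile normalization (adjusted p = 0.0112). For Mrpl1 the probe sets disagreed, since the dimmer ones gave -0.04 and 0.24.

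Mrps25, specific to the mitochondrial small subunit, read 6.53 and 6.33 in WT LMPP, against 7.51 and 7.30 in WT LSK FLT3-, a difference of -0.98 ± 0.16 (adjusted p = 0.00239). After quantile normalization it was -0.57 (adjusted p = 0.0416), close to the threshold, and its other probe sets gave -1.16 and 0.05. Mrpl3, a large-subunit protein with a bacterial counterpart that reaches towards the catalytic centre, read 8.62 and 8.56 in WT LMPP, against 9.54 and 9.38 in WT LSK FLT3-. Its difference was -0.87 ± 0.14 (adjusted p = 0.00213), and -0.59 after quantile normalization (adjusted p = 0.0211). All probe sets of Mrpl3 were lower in WT LMPP, the other ones by -1.36, -0.83 and -0.03.

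Mrpl16, which has a bacterial counterpart in the large subunit, read 7.69 and 7.50 in WT LMPP, against 8.54 and 8.36 in WT LSK FLT3-. The difference was -0.86 ± 0.14 (adjusted p = 0.00258), and -0.53 after quantile normalization (adjusted p = 0.0377). Mrpl45, which lies at the exit of the peptide tunnel and holds the ribosome to the inner membrane, read 5.33 and 5.28 in WT LMPP, against 6.17 and 6.11 in WT LSK FLT3-. It differed by -0.84 ± 0.14 (adjusted p = 0.00264), and by -0.54 after quantile normalization (adjusted p = 0.0332). In none of these genes did an array of WT LMPP reach an array of WT LSK FLT3-.

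The remaining falls were seen on the deposited values alone, in 23 genes. Mrpl36, a large-subunit protein with a bacterial counterpart, read 6.28 and 6.52 in WT LMPP, against 7.31 and 7.15 in WT LSK FLT3-. Its difference of -0.83 ± 0.17 passed (adjusted p = 0.00635), but after quantile normalization it was -0.43 (adjusted p = 0.12), and without WT LSK FLT3- replicate 1 the call was lost too (adjusted p = 0.0686). Mrps12, whose bacterial counterpart lies at the decoding site, read 7.56 and 7.57 in WT LMPP, against 8.10 and 7.92 in WT LSK FLT3-, and its difference of -0.45 (adjusted p = 0.0417) was -0.11 after quantile normalization. Mrpl12, the stalk protein that also binds the mitochondrial RNA polymerase, read 7.53 and 7.58 in WT LMPP, against 7.95 and 7.94 in WT LSK FLT3-. Its difference was -0.39 (adjusted p = 0.0417) on the deposited values and -0.03 after quantile normalization.

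At the other end, Mrps21, a small-subunit protein with a bacterial counterpart, had the highest difference of the family on both scales. It read 7.21 and 7.26 in WT LMPP, against 6.99 and 6.98 in WT LSK FLT3-, a difference of 0.25 ± 0.13 that did not pass (adjusted p = 0.154). After quantile normalization it read 7.34 and 7.34 in WT LMPP, against 6.71 and 6.69 in WT LSK FLT3-, and passed with 0.64 (adjusted p = 0.0095). The other genes that rose on that scale alone were Mrpl33 (0.52), Mrpl17 (0.49), Mrps36 (0.49) and Mrps10 (0.45), with adjusted p between 0.0329 and 0.0449, of which Mrps36 and Mrps10 were named after their values were seen. Later work places Mrps36 in the alpha-ketoglutarate dehydrogenase complex rather than in the ribosome. On the deposited values the same 4 genes differed by 0.05 to 0.12, and Mrpl39, a mitochondria-specific large-subunit protein, by 0.15 (adjusted p = 0.415).

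**Figure D3:**
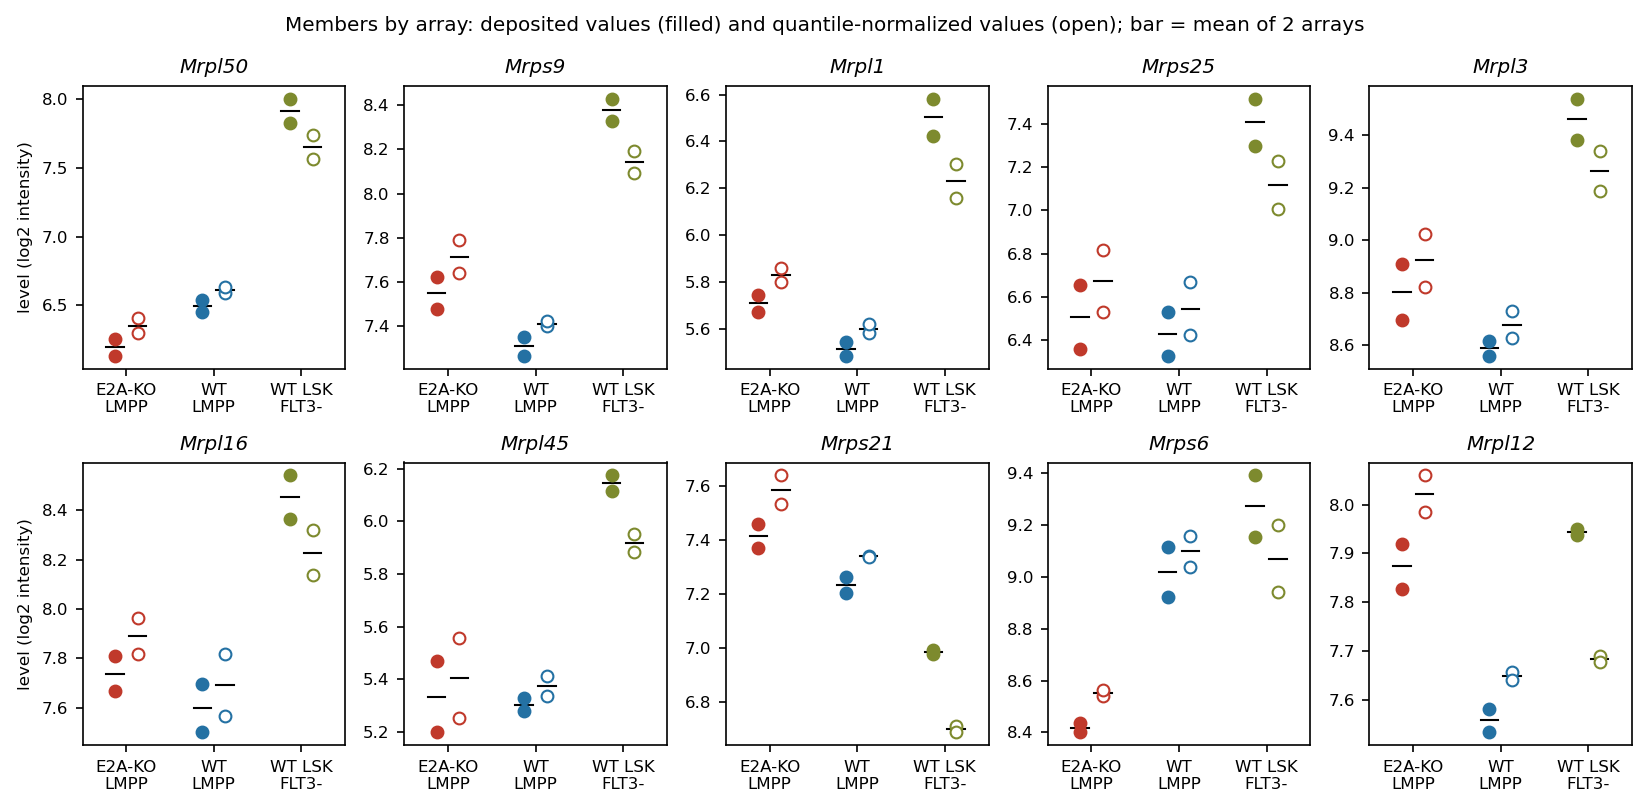
Log2 intensity of 10 mitoribosomal genes on each of the 6 arrays, with E2A-KO LMPP, WT LMPP and WT LSK FLT3- from left to right, 1 point an array, filled for deposited and open for quantile-normalized values, and a bar at the mean of the 2 arrays. On the deposited values Mrpl50 sat at 6.13 to 6.54 on the 4 LMPP arrays and at 7.83 and 8.0 on the WT LSK FLT3- arrays.

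Members of both subunits fell on the deposited values, where 23.7% of all genes and 37.1% of the brightest 60% fell. In the large subunit 17 of 49 genes fell (34.7%) with a median difference of -0.25. In the small subunit 13 of 26 fell (50%) with a median of -0.43. After quantile normalization, where 10.1% of all genes were lower and 9.1% higher, 5 large-subunit genes were lower and 2 higher (median 0.05). In the small subunit 2 genes were lower and 2 higher, with a median of -0.08. Mrps36 was counted in neither subunit. In the large subunit 11 of 29 genes with a bacterial counterpart and 6 of 20 genes specific to mitochondria fell, with medians of -0.26 and -0.25. In the small subunit the counts were 8 of 16 and 5 of 10, with medians of -0.43 and -0.49. The difference between the subunits was not tested.

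The members were also counted by position in the ribosome on the deposited values, where 23.7% of all genes and 37.1% of the brightest 60% fell. Of 3 genes of the stalk and its base 1 fell (Mrpl12). The others, Mrpl10 and Mrpl11, differed by -0.23 (adjusted p = 0.363) and 0.09 (adjusted p = 0.661). Around the peptide tunnel exit 1 of 6 fell, which was Mrpl45. In the central protuberance, the crown of the large subunit, 2 of 7 fell, and at the decoding site and messenger path of the small subunit 2 of 4. Of the 5 genes with special roles 0 passed limma's test (1 at an unadjusted p under 0.05). They include Mrpl58, a hydrolase that frees stalled peptides (-0.39, adjusted p = 0.093), and Mrps30, which sits in the large subunit despite its name (-0.04, adjusted p = 0.856). After quantile normalization 1 tunnel exit gene was lower and 1 higher, and no gene of the other positions or special roles passed. At an unadjusted p under 0.05 there were then 1 stalk gene and 2 of the central protuberance. Differences between positions were not tested.

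**Figure D4:**
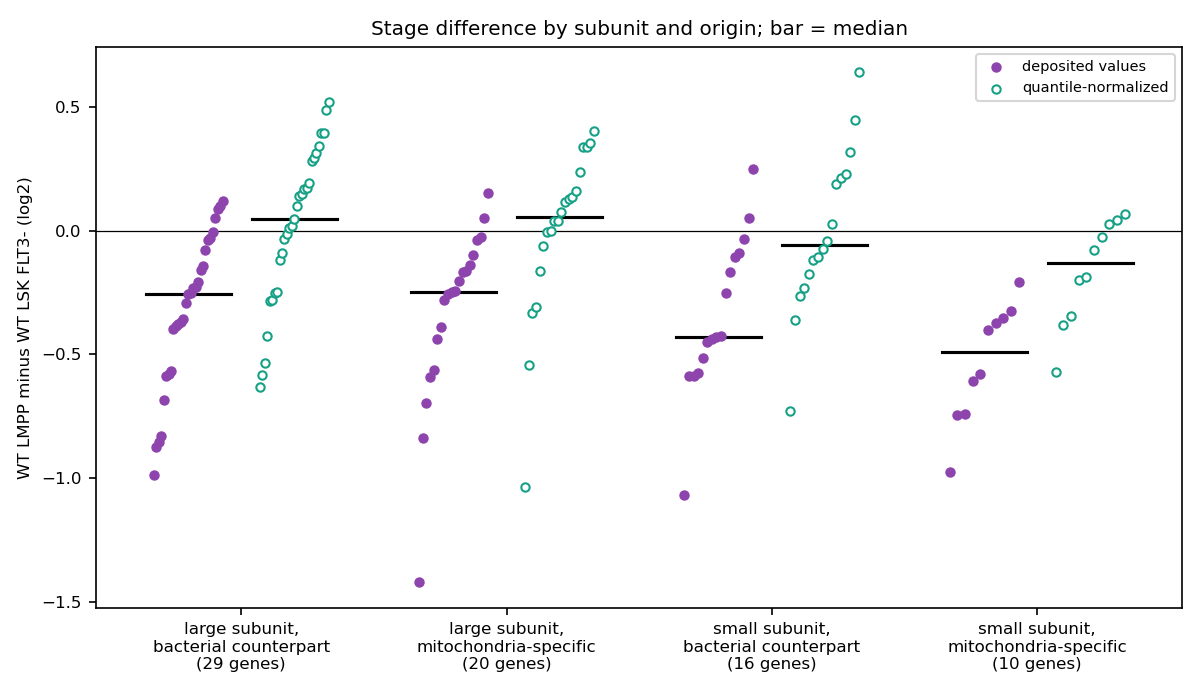
Log2 difference of WT LMPP minus WT LSK FLT3- for mitoribosomal genes in 4 groups by subunit and by presence of a bacterial counterpart, 1 point a gene, filled for deposited and open for quantile-normalized values, with a bar at the group median. On the deposited values the medians lay between -0.49 and -0.25, and the quantile-normalized medians lay nearer to 0 in each group.

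The other parts of the mitochondrial translation machinery had lower medians on the deposited values as well. On that scale 23.7% of all genes fell, and 37.1% of the brightest 60% of genes fell with a median of -0.29. After quantile normalization 10.1% of all genes and 14.1% of the brightest 60% fell. Of 10 translation factors 5 fell, with a median of -0.50, and 2 fell after quantile normalization. Mtif2, the initiation factor that brings the first transfer RNA, differed by -1.20 (adjusted p = 0.000798) and by -0.80 after quantile normalization (adjusted p = 0.00936). Mrrf, which recycles the ribosome, differed by -0.89 (adjusted p = 0.00148) and by -0.52 after it (adjusted p = 0.0252). Among 19 genes of mitochondrial aminoacyl-tRNA synthesis 9 fell and 1 rose. Nars2, the asparagine enzyme, differed by -1.12 (adjusted p = 0.0017), and Vars2, the valine enzyme, by 0.58 (adjusted p = 0.0101). After quantile normalization they passed again at -0.74 and 0.77, and they were then the 2 genes of that list past the threshold.

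Assembly and ribosomal RNA modification genes fell in 12 of 24 cases (50%, against 37.1% of the brightest 60% of genes), with a median of -0.45. After quantile normalization they fell in 2 cases, with 1 rise. Mterf3, which takes part in building the large subunit, differed by -1.10 (adjusted p = 0.001) and by -0.75 after it (adjusted p = 0.00838). Tfb1m, which methylates the small-subunit RNA, differed by -1.08 (adjusted p = 0.00119) and by -0.68 after it (adjusted p = 0.0169). Of 16 genes for mitochondrial DNA and RNA synthesis and processing 8 fell, and 5 did so after quantile normalization. Lrpprc, which stabilises mitochondrial messengers, differed by -1.40 (adjusted p = 0.000206) and by -1.02 after it (adjusted p = 0.0017). Supv3l1, an RNA helicase of the mitochondrial degradosome, differed by -1.11 and Tefm, the transcription elongation factor, by -1.08 on the deposited values.

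Among mitoribosomal proteins with other symbols 4 were measured, and Ptcd3, of the small subunit, was the one that fell, by -0.44 (adjusted p = 0.029). Dap3, also of the small subunit, passed as higher after quantile normalization alone (0.44, adjusted p = 0.0455). Of 11 regulators of nuclear genes for mitochondria 5 fell on the deposited values (45.5%, against 37.1% of the brightest 60% of genes). Mycn, a growth regulator of the Myc family, differed by -1.88 (adjusted p = 5.88e-05) and by -1.64 after quantile normalization (adjusted p = 0.00033), where it was the 1 gene of its list to pass. Gabpa, the DNA-binding part of GABP, an activator of many mitochondrial genes, differed by -0.59 (adjusted p = 0.00944) and by -0.27 after it (adjusted p = 0.177). Pprc1, a coactivator of the same programme, differed by -0.59 (adjusted p = 0.0122).

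A pair of other large complexes was set beside the family. Of 80 respiratory chain subunit genes encoded in the nucleus, 26 fell (32.5%) and 1 rose on the deposited values, with a median of -0.28. That share lay between the 23.7% of all genes and the 37.1% of the brightest 60% that fell. After quantile normalization 4 fell (5%) and 8 rose (10%), with a median of -0.05. Of all genes 10.1% fell and 9.1% rose on that scale, and of the brightest 60% 14.1% fell and 13.2% rose. Of 42 cytosolic ribosomal protein genes, 1 fell and 4 rose (9.5%) on the deposited values, with a median of -0.07. On the deposited values 10.4% of all genes rose. After quantile normalization 0 fell (2 were lower at an unadjusted p under 0.05) and 7 rose (16.7%), with a median of 0.03. These are counts on the same arrays, and the difference between the complexes was not tested.

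Promoters were read for genes at both ends of the stage comparison, to show which sequence lies at their start, and some of them are printed here. The window ran from 250 bases before to 50 bases after the annotated start, and 67 of the 76 genes had an entry in the RefSeq table for GRCm38.p6. Mrpl50 lies at chr4:49521034-49521333 on the minus strand, Mrps9 at chr1:42850983-42851282 on the plus strand, Mrpl3 at chr9:105053018-105053317 on the plus strand, and Mrps21 at chr3:95871465-95871764 on the minus strand. The sequences run 5′ to 3′ on the gene's strand. Capitals mark a match to a searched motif on either strand, which was the E-box CAGCTG in Mrps9 and the ETS motif CCGGAAG in Mrpl3 and, on its opposite strand, in Mrps21. Mrpl50 held no match. Of the other genes lower in WT LMPP on both scales, not printed, Mrpl1 and Mrps25 held no match either. Mrpl45 held CAGCTG, and Mrpl16 held the E-box CACCTG on its opposite strand.
Mrpl50: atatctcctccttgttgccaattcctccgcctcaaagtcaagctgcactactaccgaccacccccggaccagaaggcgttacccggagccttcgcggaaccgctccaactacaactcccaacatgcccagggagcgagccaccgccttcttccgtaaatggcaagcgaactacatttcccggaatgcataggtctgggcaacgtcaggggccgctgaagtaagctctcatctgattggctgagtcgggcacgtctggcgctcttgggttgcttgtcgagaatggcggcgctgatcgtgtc
Mrps9: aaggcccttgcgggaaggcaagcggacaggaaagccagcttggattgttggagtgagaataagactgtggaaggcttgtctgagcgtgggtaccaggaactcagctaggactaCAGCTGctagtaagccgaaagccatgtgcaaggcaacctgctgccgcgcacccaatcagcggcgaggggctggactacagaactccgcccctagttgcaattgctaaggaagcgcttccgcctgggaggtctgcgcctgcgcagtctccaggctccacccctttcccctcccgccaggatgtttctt
Mrpl3: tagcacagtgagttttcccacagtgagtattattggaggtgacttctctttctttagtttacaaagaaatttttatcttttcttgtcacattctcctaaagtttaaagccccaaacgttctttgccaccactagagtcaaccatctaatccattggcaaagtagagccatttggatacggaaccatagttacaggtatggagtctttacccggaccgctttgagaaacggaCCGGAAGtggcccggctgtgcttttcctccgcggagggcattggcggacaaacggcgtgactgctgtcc
Mrps21: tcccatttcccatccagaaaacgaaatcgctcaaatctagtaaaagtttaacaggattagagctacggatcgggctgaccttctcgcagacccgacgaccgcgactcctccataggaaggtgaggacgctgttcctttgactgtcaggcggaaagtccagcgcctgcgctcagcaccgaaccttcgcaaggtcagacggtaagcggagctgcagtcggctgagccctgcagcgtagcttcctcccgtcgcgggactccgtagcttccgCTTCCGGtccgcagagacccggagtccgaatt

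The motifs were searched on both strands, and an overlap with another motif did not exclude a match. CCGGAAG, bound by ETS factors such as GABP, was in 34.2% of the 73 promoters of the family, against 8.86% of all 32851 promoters in the table. AAGATGGC, the core bound by YY1, was in 16.4% against 2.75%, and the palindromic NRF1 motif in 4.11% against 0.971%. The E-boxes of the kind bound by E2A were in shares nearer to those of all promoters, at 16.4% against 16.3% for CAGCTG and 13.7% against 20.2% for CACCTG. Of the 67 genes with a promoter, CCGGAAG was held by 1 of 7 that were lower in WT LMPP on both scales (Mrpl3), 5 of 16 that fell on the deposited values alone and 19 of 44 others. For AAGATGGC the counts in the same groups were 0 of 7, 6 of 16 and 6 of 44, and for the NRF1 motif 0 of 7, 1 of 16 and 2 of 44. For CAGCTG they were 2 of 7, 1 of 16 and 8 of 44, and for CACCTG 1 of 7, 1 of 16 and 8 of 44. The set of all promoters was not narrowed to genes measured or expressed here. A match describes these letters and is not a binding site.

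In E2A-KO LMPP against WT LMPP, the comparison for which the study was made, 0 of the 76 mitoribosomal genes passed limma's test in either direction on both scales, where 1.37% of all genes changed on the deposited values (0.995% lower, 0.379% higher) and 1.22% after quantile normalization (0.874% lower, 0.346% higher). At an unadjusted p under 0.05 there were 5 of the 76, and 2665 of the 18194 genes. The median difference of the family was 0.02, with 42 genes above 0 and 34 below, and 75 of the 76 lay within 0.5 of 0. The standard error of a gene's difference ran between 0.12 and 0.23. In simulated data of this size the test recovered 21.0% of genes changed by 0.5 and 99.3% of those changed by 1. Changes of 0.5 or less could therefore have gone undetected. The simulated noise used variances that limma had already drawn towards a common value, so the real test may recover fewer.

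Mrps6, a small-subunit protein with a bacterial counterpart, had the largest difference of the family. It read 8.40 and 8.43 in E2A-KO LMPP, against 8.92 and 9.12 in WT LMPP and 9.39 and 9.15 in WT LSK FLT3-. The difference between E2A-KO and WT LMPP was -0.60 ± 0.14 and did not pass (adjusted p = 0.0928), and its other probe set gave -0.44. With a variance trend and robust estimation in limma it was the 1 gene of the family to pass (adjusted p = 0.00643).

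Mrpl37, specific to the mitochondrial large subunit, read 5.48 and 6.16 in E2A-KO LMPP, against 6.35 and 6.11 in WT LMPP, so the groups overlapped (-0.41, adjusted p = 0.461). Mrps16, a small-subunit protein with a bacterial counterpart, read 7.66 and 7.47 in E2A-KO LMPP, against 7.89 and 7.85 in WT LMPP (-0.31, adjusted p = 0.327). Mrpl50 was at 6.13 and 6.25 in E2A-KO LMPP, against 6.45 and 6.54 in WT LMPP (-0.30, adjusted p = 0.349). These were the next lowest differences of the family.

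On the higher side, Mrpl12 read 7.83 and 7.92 in E2A-KO LMPP, against 7.53 and 7.58 in WT LMPP, a difference of 0.32 ± 0.12 (adjusted p = 0.287). Mrpl55, a large-subunit protein with a bacterial counterpart, read 5.94 and 5.77 in E2A-KO LMPP, against 5.54 and 5.53 in WT LMPP (0.32, adjusted p = 0.309). Mrpl13, with a bacterial counterpart in the large subunit, read 9.12 and 9.13 in E2A-KO LMPP, against 8.70 and 8.92 in WT LMPP (0.31, adjusted p = 0.325). For each of these genes both E2A-KO LMPP arrays were above both WT LMPP arrays. That held for 21 genes of the family (27.6%, against 18.8% of all genes), and 15 genes were lower on both arrays (19.7%, against 22.8%).

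**Figure D5:**
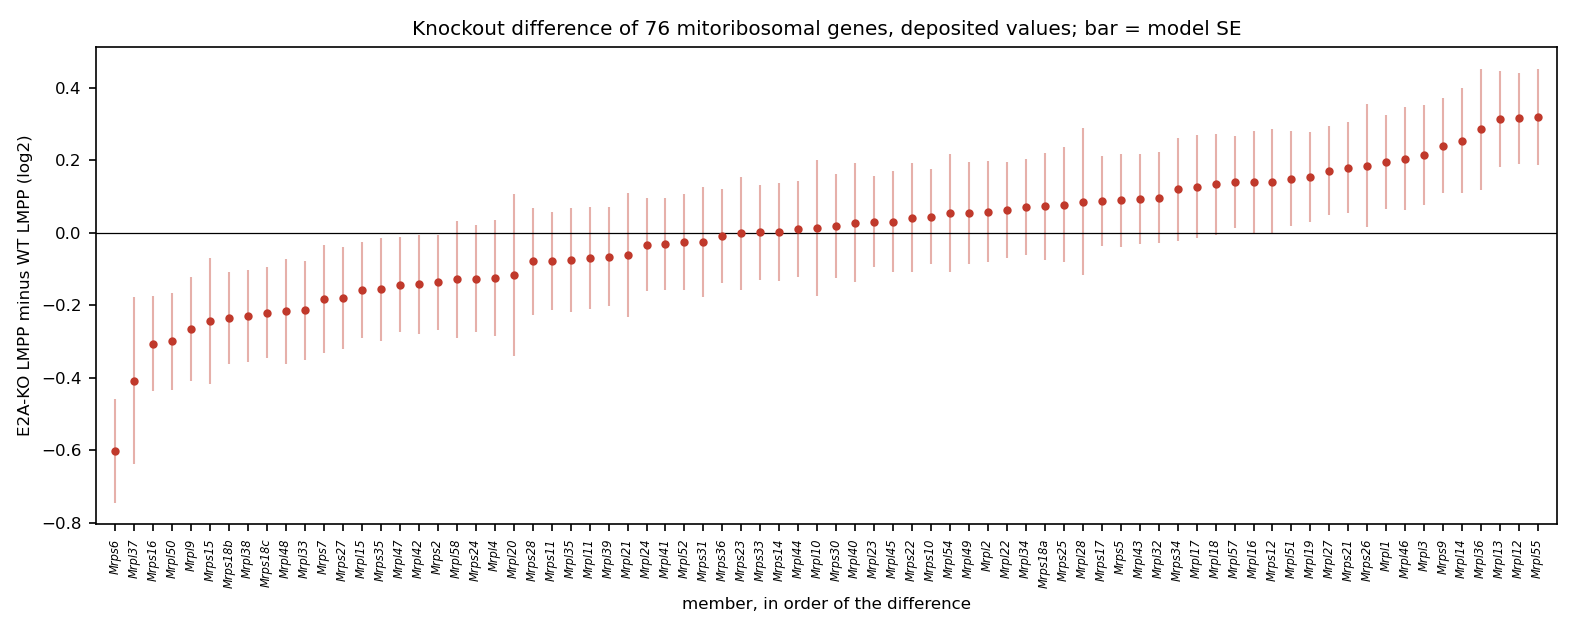
Log2 difference of E2A-KO LMPP minus WT LMPP for the mitoribosomal genes, as deposited, 1 point a gene in order of the difference, with a bar for the standard error of the fit. The differences ran from -0.60 (Mrps6) to 0.32 (Mrpl55), and 0 of 76 passed an adjusted p of 0.05.

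The further machinery likewise held no gene past the threshold in limma's test of E2A-KO LMPP against WT LMPP, where 1.37% of all genes passed. At an unadjusted p under 0.05 there were 1 of 10 translation factors, 2 of 19 aminoacyl-tRNA genes, 2 of 24 assembly genes, 2 of 16 genes for mitochondrial DNA and RNA, and 2 of 11 regulators. The same test called 0 of 80 respiratory chain genes (5 at an unadjusted p under 0.05) and 0 of 42 cytosolic ribosomal protein genes (0 at an unadjusted p under 0.05).

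E2A-KO LMPP was also set against WT LSK FLT3-, a contrast that differs in both genotype and fraction and shares arrays with both comparisons above. On the deposited values 30 mitoribosomal genes were lower in E2A-KO LMPP and 1 was higher, with a median of -0.32. Of all genes 26.5% were lower and 11% higher (37.5% in either direction), and of the brightest 60% of genes 41.7% were lower. After quantile normalization 6 mitoribosomal genes were lower and 5 higher, with a median of 0.07, where 11.1% of all genes were lower and 8.77% higher (19.8% in either direction). Of the brightest 60% of genes 15.6% were lower and 12.9% higher after quantile normalization.

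Genes lower in E2A-KO LMPP than in WT LSK FLT3- on both scales were Mrpl50, Mrps9, Mrpl45, Mrpl38, Mrps35 and Mrps6. Mrpl50 read 6.13 and 6.25 in E2A-KO LMPP, against 7.83 and 8.0 in WT LSK FLT3-, which is 3.3-fold lower (-1.72, adjusted p = 7.6e-05) and -1.30 after quantile normalization (adjusted p = 0.000593). Mrps9 read 7.62 and 7.48 in E2A-KO LMPP, against 8.43 and 8.33 in WT LSK FLT3- (-0.83, adjusted p = 0.0019), and Mrpl45 5.20 and 5.47, against 6.17 and 6.11 (-0.81, adjusted p = 0.00279). The arrays of the groups did not overlap in any of these genes, but after quantile normalization Mrps9 and Mrpl45 passed narrowly, at -0.43 (adjusted p = 0.0487) and -0.51 (adjusted p = 0.0391). On the deposited values the other probe set of Mrpl50 gave -0.25, and those of Mrps9 gave -1.16, -0.33 and 0.41.

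Mrpl38, a protein of the central protuberance, read 5.78 and 5.69 in E2A-KO LMPP, against 6.61 and 6.71 in WT LSK FLT3- (-0.93, adjusted p = 0.00101). Its other, dimmer probe sets gave -0.07 and -0.14. Mrps35, specific to the mitochondrial small subunit, read 5.52 and 5.70 in E2A-KO LMPP, against 6.47 and 6.56 in WT LSK FLT3- (-0.90, adjusted p = 0.00191). Mrps6 differed by -0.85 between E2A-KO LMPP and WT LSK FLT3- (adjusted p = 0.00245), and after quantile normalization by -0.52 (adjusted p = 0.0335). Its other probe set gave -0.85 on the deposited values. On the deposited values Mrpl38 and Mrps35 fell in WT LMPP too, by -0.70 and -0.75, against the same WT LSK FLT3- arrays. Mrps25 and Mrps15, both of the small subunit, fell on the deposited values alone in E2A-KO LMPP. They differed by -0.90 (adjusted p = 0.00308) and -0.82 (adjusted p = 0.00709), and after quantile normalization had adjusted p of 0.092 and 0.088. Without WT LSK FLT3- replicate 2 the call of Mrps15 was lost (adjusted p = 0.0634).

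Mrps21 was the gene that was higher in E2A-KO LMPP on both scales. It read 7.46 and 7.37 in E2A-KO LMPP, against 6.99 and 6.98 in WT LSK FLT3-, a difference of 0.43 ± 0.13 (adjusted p = 0.0266), and 0.89 after quantile normalization (adjusted p = 0.00225). The call on the deposited values was lost without E2A-KO LMPP replicate 1 (adjusted p = 0.0965), after median centring (adjusted p = 0.0988) and without either WT LSK FLT3- array (adjusted p = 0.134 and 0.144). After quantile normalization Mrpl17, Mrpl46, Mrps10 and Mrps36 were also higher in E2A-KO LMPP, of which the last 3 were named after their values were seen.

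Several array-wide measures moved with the fractions, and their part in the results was not tested. The gap between the 3′ and 5′ probe sets of Actb, a sign of RNA length after amplification, was 3.86 and 3.77 in E2A-KO LMPP and 3.89 and 3.95 in WT LMPP, against 3.55 and 3.45 in WT LSK FLT3-, while that of Gapdh overlapped between the groups. The summed level of 4 erythroid markers was 6.33 to 6.58 on the E2A-KO LMPP arrays and 6.39 to 6.43 on the WT LMPP arrays, against 7.54 to 7.62 on the WT LSK FLT3- arrays (log2 of the sum), with 1 or 2 of the 4 below the array median. That of 7 stromal and endothelial markers was 7.13 to 7.26, 6.80 to 7.09 and 7.95 to 7.99 in the same order of groups, with 4 to 6 of the 7 below the array median. The sum of 10 mature myeloid markers was 10.96 to 11.18 in E2A-KO LMPP, against 12.20 to 12.24 in WT LMPP and 12.24 to 12.35 in WT LSK FLT3-. Such sums follow their brightest markers and hide members that move apart. On the deposited values, 6 of these myeloid markers rose and 2 fell in WT LMPP against WT LSK FLT3-. In the same comparison 2 erythroid markers rose and 2 fell, and 1 stromal or endothelial marker rose and 2 fell. The sum of 6 B-lineage markers was 7.24 to 7.35 in E2A-KO LMPP, against 7.56 to 7.61 in WT LMPP and 7.31 to 7.32 in WT LSK FLT3-.

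The family was measured by 156 probe sets, and 42 genes had more than 1. All probe sets of a gene shared the sign of the difference in 25 of these 42 genes in WT LMPP against WT LSK FLT3-, in 13 in E2A-KO LMPP against WT LMPP, and in 16 in E2A-KO LMPP against WT LSK FLT3-. Of the 30 genes that fell in WT LMPP, 19 had several probe sets, and in 14 of them all lay below 0. Mrpl1, Mrps25, Mrpl49, Mrps11 and Mrps31 were the exceptions. The 30 genes with an adjusted p under the threshold had arrays fully apart, and over the family 54 genes had both WT LMPP arrays below both WT LSK FLT3- arrays (71.1%, against 39.3% of all genes). After quantile normalization that number was 29 (38.2%, against 29.8%). The same count was not made for the brightest 60% of genes, the range of the family. Of those 10917 genes, 7684 had a difference below 0 on the deposited values.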

How the data were processed

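Sorted cells of 3 groups were measured on 6 Affymetrix arrays, 2 a group, and grouped by their titles; another free-text label names WT LMPP for all samples and was set aside. Per the labels' protocols, RNA was amplified in more than 1 round with 3′ labelling, which favours transcript ends. The authors deposited linear probe set intensity values; per the submitters' processing notes these came from RMA, whose version, and whether it was run once over the 6 arrays, are not given in the sources. Log2 was taken before testing. Of 45101 probe sets, 34958 had 1 symbol, 932 several and 9211 none. The brightest probe set of each symbol was kept, which left 18194 genes, and 3 comparisons were tested with limma 3.58.1 (R 4.3.3) in 1 fit over the 6 arrays, with 3 residual degrees of freedom, 5.8 prior degrees of freedom and Benjamini-Hochberg adjustment. Depth has no meaning for arrays; their number limits the precision.

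On simulated data for E2A-KO LMPP against WT LMPP (10 simulations of 18194 genes, 200 of them changed), the fit recovered 21.0%, 99.3% and 100% of genes changed by 0.5, 1 and 2 (log2), and 6.64% of its calls were false. The noise was drawn from limma's moderated variances, which differ less between genes than the raw ones. The named genes were, per comparison, the 8 members with the largest change past the threshold in each direction, or the 4 with the largest difference where fewer than 4 passed, with the genes of set structural roles and up to 3 genes of each other list. The members, the lists and this rule were chosen with earlier results of these data known. Alternatives were quantile normalization, median centring, a replicate block, a fit of 4 arrays, the mean of all probe sets, a filter on the dimmest 40% of genes, a variance trend with robust estimation, and leaving out each array. Promoter sequences are RefSeq's for GRCm38.p6, matched to the family by gene identifier, and the printed ones were then picked by symbol. Figures were drawn with matplotlib 3.10.9.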

Additional observations from a re-analysis of the deposited data

How the results depend on the processing

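Quantile normalization moved the family's results most, and the cause of the unequal array distributions was not tested. It gave a median of 0.0219 with 7 genes lower and 5 higher in WT LMPP against WT LSK FLT3-, 0.0749 with 6 lower and 5 higher in the E2A-KO LMPP comparison with WT LSK FLT3-, and a median of 0.0485 in E2A-KO LMPP against WT LMPP. Centring arrays on their median moved the median of all genes to -0.12 and -0.16 in the comparisons with WT LSK FLT3-, and the family's medians to -0.42 and -0.46 with 39 and 44 genes lower, 0 higher in the second, and to -0.0146 in E2A-KO LMPP against WT LMPP. The share of higher genes among all calls was 30.5% as deposited, 47.5% after quantile normalization and 17.8% after centring for WT LMPP against WT LSK FLT3-, and 29.3%, 44.2% and 14.6% with E2A-KO LMPP in place of WT LMPP. The mean of a gene's probe sets gave medians of -0.28 and -0.25 and 1 gene higher in WT LMPP. A variance trend with robust estimation left 1 gene lower in E2A-KO LMPP than in WT LMPP.

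Leaving out each array in turn gave 9 to 31 genes lower and medians of -0.35 to -0.30 for WT LMPP against WT LSK FLT3-. With E2A-KO LMPP set against WT LSK FLT3- it gave 10 to 32 lower, 0 to 1 higher and medians of -0.36 to -0.30. With the replicate number as a block, 26 genes were lower in WT LMPP than in WT LSK FLT3-, and 29 were lower in E2A-KO LMPP. In E2A-KO LMPP against WT LMPP 0 passed. Same-numbered arrays did not deviate together over all genes (r of 0.02, -0.02 and -0.04). The titles give the number alone, and these values cannot show whether same-numbered arrays share a batch.

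Among the values of named genes under the alternatives, 395 kept direction and call, including genes that passed in neither fit. Another 10 lost and 5 gained the call, and 6 turned sign. The last were values near 0: Mrpl17 in WT LMPP against WT LSK FLT3- (-0.0058 after centring, -0.0496 to 0.2505 when an array was left out), and in the E2A-KO LMPP comparison with WT LSK FLT3- Mrpl28 (-0.0002 after centring, -0.0748 with the mean of probe sets) and Mrpl14 (-0.041 after centring, -0.0573 to 0.2488 when an array was left out). Mrpl17 and Mrpl14 turned without WT LSK FLT3- replicate 1. The mean of probe sets ended the call of Mrpl1 in WT LMPP (adjusted p = 0.103). For each comparison, leaving out an array of the third group gave the same calls over all genes as the fit of 4 arrays. These settings repeat each other, so the 395 values are not independent checks.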
